A study of Saccharomyces cerevisiae with 24 samples.

Results

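The change from a pheromone-imposed G1 arrest to a nocodazole-imposed mitotic arrest (M) was described in total RNA of budding yeast, Saccharomyces cerevisiae. The 6 M and 6 G1 total RNA libraries were taken by their titles, which made 12 of the 24 libraries of the series, the other 12 being polyA-selected libraries of the same RNA samples. All cells were of the W303-1A background and mating type a. In each arrest there were 3 cultures of ycg1Degron1, in which YCG1 was driven by the MET3 promoter and its product carried the IAA7 degron together with the OsTIR1 ligase, and 3 of a control with Ycg1-3PK, a Pk epitope fusion at the same locus. The table names each library by arrest and a strain code, 14 or 18, which the labels used here do not explain, so the code was kept as a block and was not decoded. What is tested is therefore 1 change fitted in common over both strains. A feature can be called although it changed in only 1 of the codes.

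G1 cells were held in α-factor, first for 1.5 h in synthetic medium lacking methionine and then for 2 h in rich medium with auxin at 88 µg/ml and 25 °C. The same cultures were then released into rich medium with auxin and nocodazole, and the M sample was collected 2 h later. All 12 libraries therefore come from cells given auxin and methionine, whether or not they carried a degron. M and G1 cells differ in cell-cycle position, in the presence of pheromone and of nocodazole, in passage through S phase and in 2 h of further growth, and these differences cannot be told apart. Haploid a cells sense α-factor through the receptor Ste2 and a kinase cascade that acts on the transcription factor Ste12. Ste12 binds pheromone response elements and turns on mating genes, while Far1 holds the cell before Start. In a normal cycle SBF and MBF then turn on G1/S genes, histone genes follow in S phase, and Fkh2, Mcm1 and Ndd1 turn on the CLB2 cluster in G2 and M phase. Nocodazole depolymerises microtubules, so that the spindle checkpoint holds cells before anaphase.

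Total counts were 13932403 to 20358764 in M libraries and 15694549 to 21650529 in G1 libraries. Because ribosomal RNA was left in, 595508 to 925389 counts in M and 682109 to 979155 in G1 fell outside the ribosomal DNA and ERCC spike-in rows, and this is the depth behind the values below. They are given as counts-per-million values of that remainder (CPM), as the lowest, the median and the highest of the 6 libraries of an arrest. The spike-ins received 191 to 646 counts in a library and were not used for scaling, so a level here is a share of the RNA outside ribosomal DNA and not an amount per cell. In bulk samples, fewer cells of a type and less RNA per cell cannot be told apart. YCG1, the gene targeted in ycg1Degron1, had 22.2, 40.5 and 76.3 CPM in M and 32.8, 59.8 and 79.7 CPM in G1, and its log2 change of -0.37 ± 0.20 was not past the threshold in edgeR's quasi-likelihood test (adjusted p = 0.23). In code 14 it had 22.2 to 23.2 CPM in M and 32.8 to 66.1 CPM in G1, without overlap, and was called lower in M in that code alone (log2 change -0.998, adjusted p = 0.0454, edgeR). In code 18 it had 57.9 to 76.3 CPM in M and 53.6 to 79.7 CPM in G1. The difference between the codes was not past the threshold (adjusted p = 0.171, edgeR).

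The arrest markers separated the libraries as labelled. The 5 mitotic markers CLB1, CLB2, CDC5, CDC20 and SWI5 were higher in each M library than in any G1 library, and the 5 pheromone markers FUS1, FIG1, AGA1, FAR1 and PRM1 were lower. Of the genes that mark α cells, MF(ALPHA)1, MF(ALPHA)2 and STE3 stayed between 0 and 4.40 CPM in all 12 libraries. SAG1, the α-agglutinin gene, was measured at 27.6, 31.4 and 42 CPM in M and 54.7, 74.2 and 160.0 CPM in G1 and fell (log2 change -1.40 ± 0.22, adjusted p = 0.000121, edgeR). The G1 library of code 18, replicate 3, stood apart: its summed G1/S genes had 3875 CPM, against 1431 to 2205 CPM in the other G1 libraries, and its summed pheromone genes had 8970 CPM, against 12214 to 20282 CPM. The M libraries of code 14, replicates 1 and 2, had the highest summed histone genes in M, at 701 and 774 CPM against 378 to 428 CPM in the other M libraries. Counts of list members are also given without these 3 libraries where they then moved by more than 1.5 times.

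Of 7126 listed features other than spike-ins, 4685 had enough counts to test. In M, 521 features (11.1%) were higher and 484 (10.3%) lower at an adjusted p below 0.05, and the other 78.5% were not called. Without a normalisation factor the split was 629 higher and 385 lower. At least 2-fold differences were called for 111 features (2.37%) higher in M and 91 (1.94%) lower. The 6 M and 6 G1 libraries did not overlap in 219 of the features called higher (4.67% of those tested) and 204 of those called lower (4.35%). Within code 14 alone and within code 18 alone, 310 features were called in the same direction in each.

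Mating genes made up the lowest end of the comparison. All 27 genes of the pheromone response list were tested, and all 27 fell in M, where 10.3% of all features fell. Their median log2 change was -2.58, beside 0.01 over all features tested. In 25 of the 27 the libraries of the arrests did not overlap, where 4.35% of all features fell without overlap. The 10 protein-coding genes with the lowest change were mating genes without exception.

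AGA1 encodes the wall-anchored subunit of a-agglutinin, the adhesin of a cells. It had 137, 197 and 301 CPM in M and 3752, 5299 and 5745 CPM in G1, so that even the highest M library was far below the lowest G1 library. The log2 change was -4.67 ± 0.11 (adjusted p = 2.73e-15, edgeR). FIG2, which encodes another wall adhesin of mating cells, had 108, 206 and 495 CPM in M and 2267, 5869 and 8205 CPM in G1, a log2 change of -4.55 ± 0.19 (adjusted p = 4.91e-12, edgeR). Its G1 levels varied more among libraries than those of AGA1.

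Genes for cell and nuclear fusion were close to the detection limit in M. PRM3, which acts in nuclear envelope fusion, had 0, 4.91 and 8.27 CPM in M and 73.6, 128 and 157 CPM in G1 (log2 change -4.73 ± 0.24, adjusted p = 5.67e-11, edgeR). FUS1, a membrane protein of the cell fusion zone, had 7.39, 14.1 and 23.5 CPM in M and 138, 271 and 427 CPM in G1 (log2 change -4.17 ± 0.21, adjusted p = 4.59e-11, edgeR). In none of these genes did an M library reach the level of a G1 library, and the same held for PRM1 and FIG1. The rule that named the 10 lowest genes required this of each of them. PRM1, which promotes plasma membrane fusion, had 9.41, 21.6 and 57.9 CPM in M and 238, 514 and 689.9 CPM in G1, with a log2 change of -4.19 ± 0.20. FIG1, a mating factor needed for calcium uptake, had 2.09, 15.8 and 39.7 CPM in M and 146, 329.8 and 555 CPM in G1, with a log2 change of -4.48 ± 0.27. PRM6 and PRM2, at log2 changes of -4.51 and -4.19, completed the pheromone-regulated genes among the 10 lowest.

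Genes of the signalling pathway that are members of the list also fell. The list does not hold the whole pathway. STE7 and STE50 are not in it, and in polyA RNA they changed by 0.19 and -0.03 and were not called. SST2, the GTPase-activating protein that desensitises the receptor pathway, had 28.2, 53 and 101 CPM in M and 500.4, 668 and 793 CPM in G1 (log2 change -3.62 ± 0.15). FAR1, the inhibitor that holds cells before Start, had 33.6, 59.3 and 80.8 CPM in M and 182, 306 and 405 CPM in G1 (log2 change -2.44 ± 0.15). FUS3, the mating MAP kinase, had 25.1, 38.1 and 61.2 CPM in M and 115, 147 and 179 CPM in G1 (log2 change -1.81 ± 0.16). GPA1, the G protein α subunit, changed by -1.45 and STE12, the transcription factor itself, by -1.23. All 5 passed the test, and none overlapped between arrests. The smallest changes of the list were those of PRM10 (-0.92, adjusted p = 0.0207, edgeR) and GIC2 (-0.94, adjusted p = 7.29e-06, edgeR), and PRM10 missed the threshold without G1 code 14 replicate 2 or M code 14 replicate 2 or 3 (adjusted p up to 0.0555).

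The a-specific genes, which only cells of mating type a express, fell as well. All 6 were tested, all 6 fell, and their libraries did not overlap, where 10.3% of all features fell and 4.35% did so without overlap. BAR1, the secreted protease that degrades α-factor, had 19.2, 44.9 and 69.1 CPM in M and 694, 1013 and 1136 CPM in G1 (log2 change -4.48 ± 0.18, adjusted p = 3.86e-12, edgeR). STE2, the α-factor receptor, had 155, 204 and 249 CPM in M and 774, 969 and 1038 CPM in G1, a smaller log2 change of -2.23 ± 0.08 that still left a wide gap between the arrests. The a-factor precursor genes MFA1 and MFA2 changed by -4.36 and -1.75. STE6, the a-factor exporter, had 250.4, 254 and 335 CPM in M and 719, 743 and 759.7 CPM in G1 and the smallest change of the 6 (log2 -1.43 ± 0.08).

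**Figure D1:**
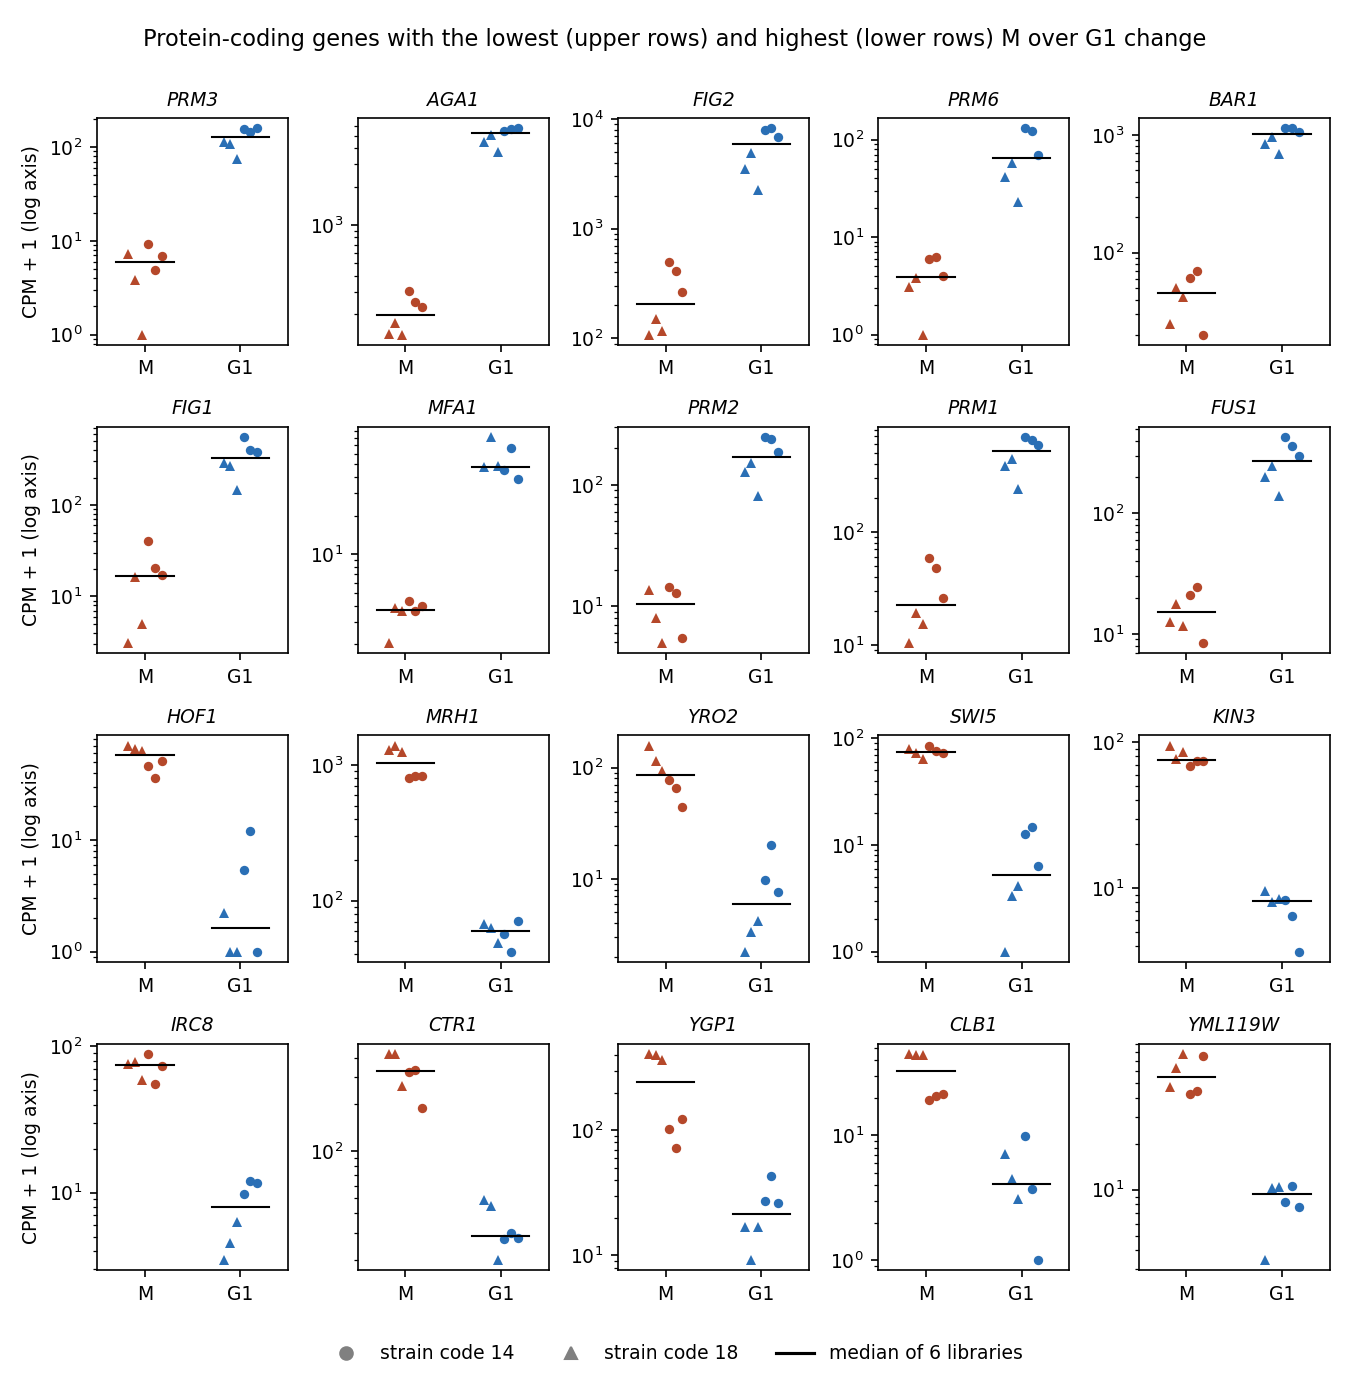
Levels of the 10 protein-coding genes with the lowest change (upper rows) and the 10 with the highest (lower rows), as CPM + 1 on a log axis. Each point is 1 library, M left of G1 in every panel, with the symbol showing the strain code and the line the median of 6 libraries. AGA1 lies between 137 and 301 CPM in M and from 3752 CPM up in G1, and MRH1 between 805 and 1389 CPM in M and at most 69.2 CPM in G1.

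The regions in front of these genes were searched for the pheromone response element, written TGAAACA, on both strands. A window of 300 bases, from 350 to 51 bases before the start codon, was read for 5895 genes from the R64 reference, which is of strain S288C and not of W303. The element was present in 7.31% of all windows, in 13 of 27 windows of the pheromone list (48.1%) and in 8 of the 10 genes with the lowest change. Among all protein-coding genes at least 2-fold lower in M it was in 27 of 84 windows (32.1%), and among those at least 2-fold higher in 2 of 107 (1.87%). Such matches are a description and were not tested. The windows of FUS1 (chrIII:71453-71752, plus strand), PRM1 (chrXIV:110567-110866, plus strand) and BAR1 (chrIX:321992-322291, plus strand) are shown because they hold more than 1 match each, in capitals. The PRM1 matches read TGTTTCA, since they lie on the other strand, and are 11 bases apart.
FUS1: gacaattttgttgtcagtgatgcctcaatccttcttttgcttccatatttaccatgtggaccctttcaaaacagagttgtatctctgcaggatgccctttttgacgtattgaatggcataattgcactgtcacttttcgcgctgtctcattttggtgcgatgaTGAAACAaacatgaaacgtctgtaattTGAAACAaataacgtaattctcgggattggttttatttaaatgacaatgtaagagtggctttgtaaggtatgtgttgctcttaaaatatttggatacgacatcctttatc
PRM1: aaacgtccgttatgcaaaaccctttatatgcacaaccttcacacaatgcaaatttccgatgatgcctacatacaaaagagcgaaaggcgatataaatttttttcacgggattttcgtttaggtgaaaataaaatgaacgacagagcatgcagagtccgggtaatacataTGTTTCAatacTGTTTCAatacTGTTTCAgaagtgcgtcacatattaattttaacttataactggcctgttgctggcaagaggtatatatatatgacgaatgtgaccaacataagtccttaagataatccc
BAR1: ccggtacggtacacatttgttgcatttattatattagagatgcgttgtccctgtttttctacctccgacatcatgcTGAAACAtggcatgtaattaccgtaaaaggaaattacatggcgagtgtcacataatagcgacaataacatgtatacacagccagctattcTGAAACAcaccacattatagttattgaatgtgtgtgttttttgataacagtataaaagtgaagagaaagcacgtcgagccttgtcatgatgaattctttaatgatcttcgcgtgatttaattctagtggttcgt
In FUS1 the matches begin 187 and 160 bases before the start codon, in PRM1 181, 170 and 159 bases, and in BAR1 274 and 184 bases. The windows of FIG1 and FIG2, also among the 10 lowest, held no match.

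Genes of the CLB2 cluster, which act in mitosis and cytokinesis, were at the other end. All 25 of the list were tested, 22 rose in M and none fell, where 11.1% of all features rose, and their median log2 change was 1.07. In 18 of them the libraries of the arrests did not overlap, where 4.67% of all features rose without overlap. The 3 that were not called were BUD8 (-0.04), TEM1 (0.20) and NDD1 (0.32). The count was 17 in code 14 alone, where 7.26% of all features rose, and 20 in code 18 alone (7.9%).

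The highest log2 change in the whole comparison was that of HOF1, an F-BAR protein of the cytokinetic ring. HOF1 had 35.2, 56 and 69 CPM in M and 0, 0.613 and 10.9 CPM in G1, which is 247 counts in the 6 M libraries and 12 in the 6 G1 libraries together (log2 change 4.34 ± 0.45, adjusted p = 1.15e-06, edgeR). In G1, 4 of the 6 libraries held at most 1 count, so the size of the change is less certain than its direction. SWI5, the transcription factor of late mitosis, had 63.1, 73.3 and 84.4 CPM in M and 0, 4.24 and 13.7 CPM in G1 (log2 change 3.68 ± 0.30). Its libraries were well separated between the arrests.

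Among kinase genes of mitosis, KIN3 and CDC5 rose, while BUB1 and MPS1 of the spindle checkpoint list were not called. KIN3, which encodes a NIMA-like kinase, had 67.8, 74.7 and 94.1 CPM in M and 2.66, 7.17 and 8.58 CPM in G1 (log2 change 3.58 ± 0.18, adjusted p = 5.67e-11, edgeR). CDC5, the polo kinase, had 86, 113 and 124 CPM in M and 22.1, 25.6 and 38.2 CPM in G1 (log2 change 2.03 ± 0.14, adjusted p = 5.05e-09, edgeR). Genes of septum formation and budding followed, with BUD4, an axial bud-site landmark, at 2.76 ± 0.16, CHS2, the chitin synthase of the primary septum, at 2.51 ± 0.11, IQG1, which recruits the contractile ring, at 1.58 ± 0.16 and MYO1, its myosin, at 1.14 ± 0.13. HST3, a histone H3 deacetylase, changed by 2.26 ± 0.20. Each of these 5 passed the test and had no overlap. Smaller changes were those of NUM1 (0.42), DBF2 (0.43) and SPO12 (0.57).

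The forkhead site GTAAACAA, searched on both strands, was in 9 of the 25 CLB2 cluster windows (36%), against 3.14% of all windows and 11.2% (12 of 107) of those of genes at least 2-fold higher in M. Among the 10 genes with the highest change it was found in HOF1 (chrXIII:334948-335247, plus strand), SWI5 (chrIV:750793-751092, minus strand) and IRC8 (chrX:339437-339736, plus strand). These 3 windows, the only ones among the 10 to hold the site, are shown with the match in capitals.
HOF1: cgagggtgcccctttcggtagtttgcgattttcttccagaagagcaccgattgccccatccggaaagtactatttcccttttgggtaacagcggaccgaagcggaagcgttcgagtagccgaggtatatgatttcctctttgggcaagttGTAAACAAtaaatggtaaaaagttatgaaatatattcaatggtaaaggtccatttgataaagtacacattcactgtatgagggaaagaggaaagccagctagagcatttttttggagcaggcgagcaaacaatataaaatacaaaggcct
SWI5: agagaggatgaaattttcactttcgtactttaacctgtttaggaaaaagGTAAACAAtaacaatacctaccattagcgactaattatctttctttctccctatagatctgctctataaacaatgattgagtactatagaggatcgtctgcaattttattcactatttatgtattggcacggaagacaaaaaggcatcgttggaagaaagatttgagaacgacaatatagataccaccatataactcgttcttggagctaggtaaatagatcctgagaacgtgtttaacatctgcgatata
IRC8: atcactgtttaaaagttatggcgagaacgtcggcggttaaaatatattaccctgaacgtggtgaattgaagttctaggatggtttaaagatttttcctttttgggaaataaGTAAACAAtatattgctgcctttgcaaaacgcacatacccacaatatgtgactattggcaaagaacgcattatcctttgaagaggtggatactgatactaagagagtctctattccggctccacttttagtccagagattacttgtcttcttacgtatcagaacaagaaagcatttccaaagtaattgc
The matches begin 200 bases before the start codon in HOF1, 301 in SWI5 and 239 in IRC8. CLB1, CLB2 and KIN3 held none in this window. IRC8 had 54.8, 73.3 and 87.7 CPM in M and 2.45, 7.03 and 10.9 CPM in G1 (log2 change 3.36 ± 0.24), although it was not a member of the list.

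Cyclin genes did not move as a group. The mitotic cyclin CLB2 had 86, 96.4 and 106 CPM in M and 9.31, 12 and 20.5 CPM in G1 (log2 change 2.82 ± 0.17, adjusted p = 7.13e-10, edgeR). CLB1, its close relative, had 18.2, 32 and 43.9 CPM in M and 0, 3.12 and 8.81 CPM in G1 (log2 change 3.04 ± 0.34, adjusted p = 3.16e-06, edgeR). CLB4 went the other way, with 8.86, 13.8 and 18.3 CPM in M and 15.8, 20.9 and 37.2 CPM in G1 (log2 change -0.71 ± 0.24, adjusted p = 0.0394, edgeR), but the call was lost when any of 9 single libraries was left out (adjusted p up to 0.113) and with the culture as a block (adjusted p = 0.0696). The G1 cyclins CLN1 (0.97 ± 0.44), CLN2 (-0.35 ± 0.41) and CLN3 (0.11 ± 0.08), the S phase cyclin CLB5 (0.72 ± 0.34) and CLB3 (-0.16 ± 0.22) were not past the threshold, and CLB6 had too few counts to test. Of 9 cyclin genes listed, 8 were tested, 2 rose and 1 fell, where 11.1% of all features rose and 10.3% fell. Without the G1 library of code 18, replicate 3, 4 rose, where 10.9% of all features did, and without the 3 libraries named above 2 rose and none fell. In code 14 alone 4 rose and none fell, where 7.26% of all features rose.

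Among 13 listed genes of the spindle checkpoint and of anaphase control, 11 were tested, 3 rose and none fell. Over all features, 11.1% rose and 10.3% fell. CDC20, the activator that the checkpoint inhibits, had 52.9, 75 and 99 CPM in M and 21.3, 36 and 49 CPM in G1 (log2 change 1.07 ± 0.19, adjusted p = 0.000518, edgeR). BUB3 (0.81), a checkpoint protein, also passed, but missed the threshold when any 1 of 6 libraries was left out (adjusted p up to 0.0879, edgeR) and with the culture as a block (0.0635). NET1 (0.28), the nucleolar anchor of Cdc14, missed it without G1 code 14 replicate 1 or M code 14 replicate 3 (adjusted p up to 0.0628, edgeR). The checkpoint genes MAD1 (0.26), MAD2 (-0.03), MAD3 (-0.04) and BUB1 (0.01) and the separase gene ESP1 (0.01) were not called.

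All 13 genes of tubulins and of microtubule motors and binding proteins were tested, 5 rose and 2 fell. Over all features, 11.1% rose and 10.3% fell. STU2, a microtubule polymerase, had 59.1, 83.1 and 108 CPM in M and 17.3, 31.9 and 50.5 CPM in G1 (log2 change 1.34 ± 0.19, adjusted p = 4.84e-05, edgeR). TUB4, the γ-tubulin gene, changed by 0.80 ± 0.19 and ASE1, a spindle midzone bundler, by 0.74 ± 0.13, both without overlap. KAR3, a kinesin of nuclear fusion that also belongs to the pheromone list, had 11.2, 18.7 and 36.4 CPM in M and 39.95, 89.9 and 148 CPM in G1 (log2 change -2.10 ± 0.19). TUB3, the minor α-tubulin gene, fell by a small amount (-0.32 ± 0.08). KIP2 (0.68) and the β-tubulin gene TUB2 (0.30) passed in the full comparison but not without any 1 of 6 and of 7 libraries (adjusted p up to 0.0665 and 0.0827), and with the culture as a block TUB2 had an adjusted p of 0.0508. The count of genes that rose was 3 without G1 code 18 replicate 1 or 2, M code 18 replicate 3 or M code 14 replicate 2, and also 3 without the 3 libraries named above.

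Of the 5 condensin subunit genes, YCS4 and BRN1 rose and none fell, where 11.1% of all features rose and 10.3% fell. YCS4 had 80.2, 94.8 and 116 CPM in M and 38.2, 49.2 and 57.8 CPM in G1 (log2 change 0.97 ± 0.13, adjusted p = 2.87e-05, edgeR). BRN1, the kleisin, had 31, 53.3 and 61.5 CPM in M and 12.3, 29.8 and 37.2 CPM in G1 (log2 change 0.83 ± 0.22, adjusted p = 0.00944, edgeR). SMC4 (0.38 ± 0.14) and SMC2 (0.04 ± 0.14) were not called. YCG1 was altered by construction in 1 of the strains, and its values are those given above. Without the 3 libraries named above only YCS4 was called higher, and without G1 code 18 replicate 3 alone 3 genes were. In code 14 alone YCS4 rose and YCG1 fell.

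**Figure D2:**
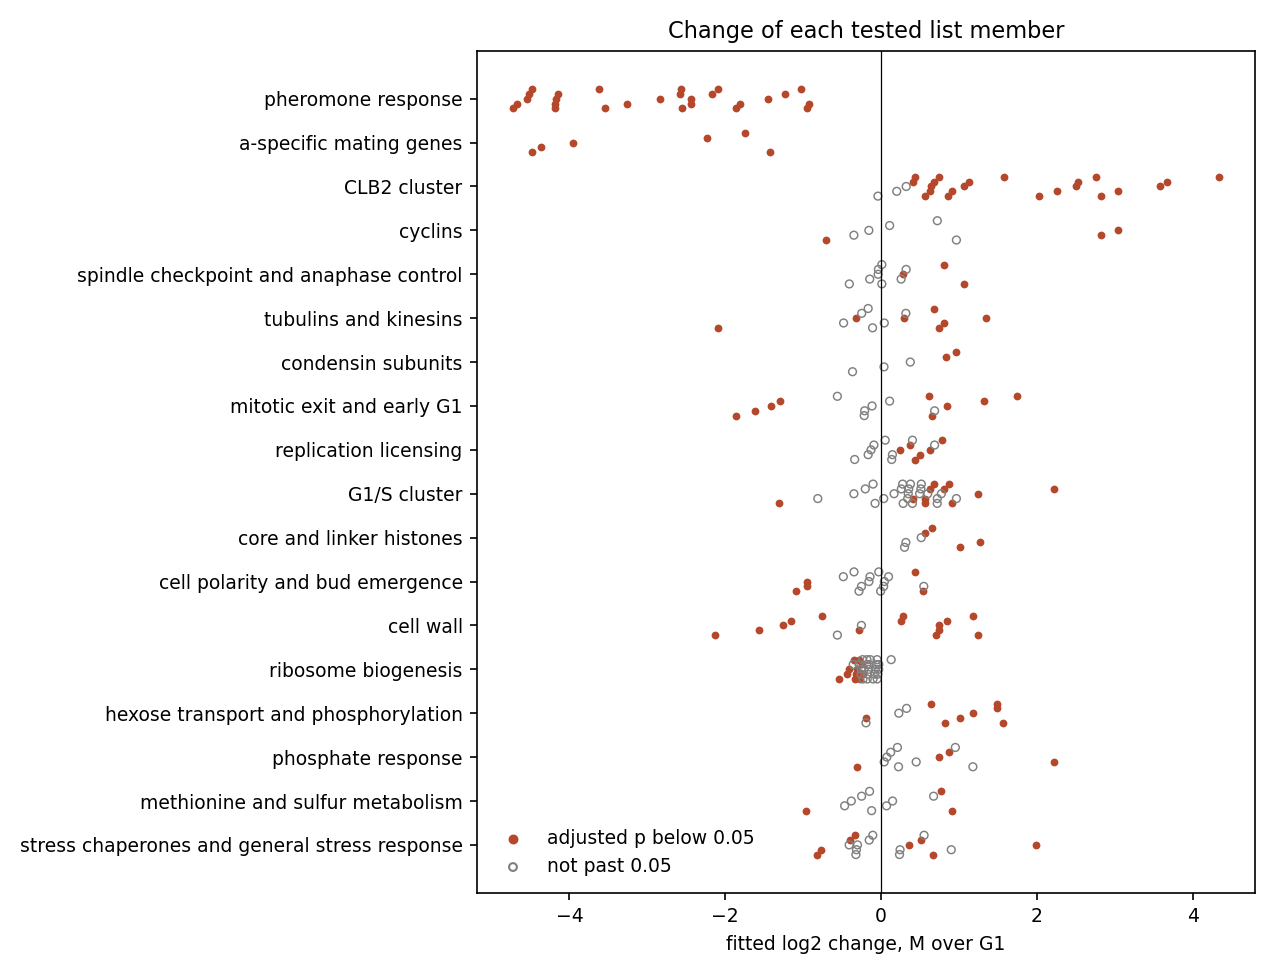
Fitted log2 change, M over G1, of each tested member of 18 gene lists. Filled points passed an adjusted p of 0.05 in edgeR and open points did not. All pheromone response and a-specific genes lie below 0, and the called genes of the CLB2 cluster lie above 0, up to HOF1 at 4.34.

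Genes of mitotic exit and early G1, among them targets of Swi5 and of the early cell cycle box, moved both ways. Of 20 listed, 15 were tested, 5 rose and 4 fell, where 11.1% of all features rose and 10.3% fell. EGT2, a wall protein of cell separation, had 18.4, 43.8 and 167 CPM in M and 8.58, 16.5 and 33.8 CPM in G1 (log2 change 1.74 ± 0.36, adjusted p = 0.00188, edgeR), with overlapping libraries. CTS1, the chitinase of cell separation, had 17.1, 42.4 and 129 CPM in M and 53.6, 112 and 371 CPM in G1 and fell (log2 change -1.41 ± 0.26, adjusted p = 0.000551, edgeR). AMN1, which inhibits mitotic exit, changed by -1.62 ± 0.17 and TEC1, a transcription factor that is also in the pheromone list, by -1.86 ± 0.17. The genes that rose were spread widely among M libraries. Without the 3 libraries named above, 2 rose (8.75% of all features did) and 4 fell (8.14%), and in code 18 alone none rose (7.9%) and 4 fell (7.56%). SIC1, the inhibitor of S phase cyclin kinase, was not called (-0.22 ± 0.24).

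Of 15 replication licensing genes, all were tested, and the 6 subunits of the MCM helicase were the only ones to rise. None fell, where 11.1% of all features rose and 10.3% fell. MCM2 had 124, 142 and 194 CPM in M and 71.9, 83.4 and 105 CPM in G1 (log2 change 0.78 ± 0.09, adjusted p = 5.19e-06, edgeR), and MCM7 changed by 0.63 ± 0.09, MCM6 by 0.51 ± 0.12 and MCM5 by 0.44 ± 0.10. These 4 did not overlap between arrests. MCM4 (0.37) and MCM3 (0.25) overlapped, and their calls were lost without any 1 of 4 and of 6 libraries (adjusted p up to 0.0607 and 0.0958), and MCM3 had an adjusted p of 0.0609 with the culture as a block. The origin recognition genes ORC1 to ORC6 lay between -0.34 and 0.15 and were not called.

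For G1/S genes, the number that rose depended on the strain code and on which libraries were kept. Of 39 listed targets of SBF and MBF, 34 were tested, 10 rose and 1 fell in the full comparison, with a median log2 change of 0.46. There, 11.1% of all features rose and 10.3% fell. Without the G1 library of code 18, replicate 3, 22 rose and none fell, where 10.9% of all features rose and 9.52% fell, and without that library and M code 14 replicates 1 and 2 the counts were 12 and 2. In code 14 alone 25 rose and none fell, while in code 18 alone 1 rose and 3 fell (7.26% and 6.4% of all features in code 14, and 7.9% and 7.56% in code 18). Leaving out G1 code 18 replicate 1 or 2, or any 1 of the 6 libraries of code 14, brought the count of genes that rose to 6. TOS4, a factor bound to promoters at G1/S, had 16.2, 36.1 and 45.6 CPM in M and 0, 6.41 and 15.8 CPM in G1 (log2 change 2.23 ± 0.38, adjusted p = 0.000276, edgeR) without overlap. POL2, the catalytic subunit of DNA polymerase ε, had 201, 212 and 239 CPM in M and 89.5, 98.4 and 191 CPM in G1 (log2 change 0.87 ± 0.15, adjusted p = 0.000276, edgeR), also without overlap. MNN1, a mannosyltransferase, changed by 1.25 ± 0.23 and RFA2, a subunit of replication protein A, by 0.91 ± 0.22, and in both 1 or more G1 libraries reached into the M range. The MCB letters ACGCGT were in 22 of the 39 windows of this list (56.4%), against 3.78% of all, and the SCB letters CACGAAA in 7 (17.9%), against 4.85%.

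Where the codes differed most in this list, the change was not shared. The change differed between codes in 9 of the 34 genes. Of all features, 1.39% had the more positive change in code 18 and 1.22% in code 14. RNR1, the large subunit of ribonucleotide reductase, changed by 1.63 in code 14 and -1.24 in code 18 (difference -2.87, adjusted p = 0.0116, edgeR). Its level in the G1 library of code 18, replicate 3, was 709.6 CPM, against 69.7 to 254 CPM in the other G1 libraries. The others were CLN1, SVS1, GIN4, CSI2, PRI2, RAD53, POL30 and SPT21.

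Of 9 histone genes listed, 7 were tested, 4 rose and none fell, where 11.1% of all features rose and 10.3% fell. The count of genes that rose was 3 without the 3 libraries named above, 5 in code 14 alone and 1 in code 18 alone, where 8.75%, 7.26% and 7.9% of all features rose. HHF2, a histone H4 gene, had 44.3, 66.7 and 106 CPM in M and 19.1, 26 and 64.1 CPM in G1 (log2 change 1.01 ± 0.28, adjusted p = 0.0151, edgeR). HTB2, an H2B gene, had 13.2, 18.3 and 56.1 CPM in M and 6.83, 9.72 and 14.7 CPM in G1 (log2 change 1.26 ± 0.36, adjusted p = 0.0159, edgeR), and missed the threshold without M code 14 replicate 2 (adjusted p = 0.0519, log2 change 0.97). HTB1 (0.65 ± 0.18) and HHT2 (0.56 ± 0.13) also passed. In all 7 the arrests overlapped, and the highest M values came from M code 14 replicates 1 and 2 in the summed list. Core histone mRNAs of yeast carry polyA tails, so they are held by both library types.

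**Figure D3:**
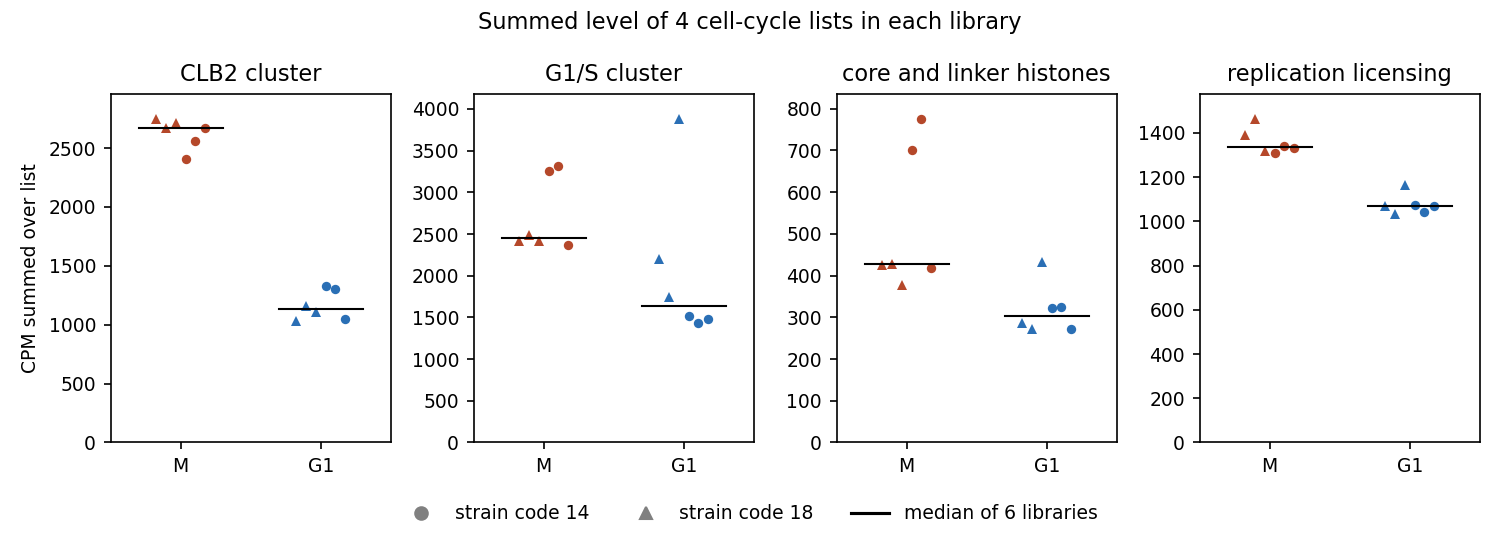
Summed CPM of 4 cell-cycle lists in each of the 12 libraries, M left of G1, with symbols for the strain code and lines for the median of 6 libraries. The G1 library of code 18, replicate 3, lies at 3875 CPM in the G1/S panel, above all 6 M libraries, which reach 3314 CPM.

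Wall genes changed in both directions. Of 17 listed wall genes, 16 were tested, 8 rose and 6 fell, where 11.1% of all features rose and 10.3% fell. HSP150, an O-glycosylated wall protein, had 1584, 2276 and 3050.5 CPM in M and 759, 973 and 1271 CPM in G1 (log2 change 1.18 ± 0.08, adjusted p = 1.65e-09, edgeR), and GAS1, a β-1,3-glucan remodelling enzyme, changed by 0.75 ± 0.08, both without overlap. SCW10, a wall glucanase, had 196, 253 and 354 CPM in M and 1004, 1128 and 1356 CPM in G1 (log2 change -2.13 ± 0.11, adjusted p = 4.31e-11, edgeR). GSC2, a glucan synthase subunit, changed by -1.56 ± 0.17, CHS3, the main chitin synthase, by -1.26 ± 0.09 and CHS1, the repair chitin synthase, by -1.15 ± 0.13. These 4 genes fell with no overlap between the arrests.

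Of 19 listed polarity genes, 17 were tested, 2 rose and 3 fell, which is near the 11.1% and 10.3% of all features. BEM2, which acts in bud emergence, had 439, 459.9 and 512 CPM in M and 825, 889.6 and 961 CPM in G1 (log2 change -0.94 ± 0.07, adjusted p = 5.97e-09, edgeR). MSB1 changed by -1.09 ± 0.13 and GIC2, a Cdc42 effector that is also in the pheromone list, by -0.94 ± 0.12. RAX2, which marks old division sites, rose by 0.53 ± 0.10 and SPA2, a polarisome scaffold, by 0.44 ± 0.11. CDC42 itself (-0.28 ± 0.13), its exchange factor gene CDC24 (-0.25 ± 0.10) and the septin genes CDC3 (0.03), CDC10 (0.04), CDC11 (-0.03) and CDC12 (-0.14) were not called.

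Of the 35 ribosome biogenesis genes, all were tested, 11 fell, none rose and 24 were not called, where 10.3% of all features fell, with a median log2 change of -0.22. RPA135, a subunit of RNA polymerase I, had 663, 728 and 812 CPM in M and 881, 979 and 1044 CPM in G1 (log2 change -0.43 ± 0.07, adjusted p = 0.000181, edgeR). MPP10, of the small subunit processome, had 105, 129 and 165 CPM in M and 177, 189 and 201 CPM in G1 (log2 change -0.54 ± 0.09, adjusted p = 0.000272, edgeR). NUG1 and NOG1, GTPases of large subunit assembly, changed by -0.41 ± 0.08 and -0.32 ± 0.08. In these 4 the libraries did not overlap. The count was 7 with the culture as a replicate block, and also 7 without G1 code 18 replicate 1 or 3 or M code 18 replicate 1 or 3, and it was 2 in code 14 alone (6.4% of all features fell) and 16 in code 18 alone (7.56%).

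Genes of cytosolic ribosomal proteins, a list added after the values were seen, were not called higher in M. Over all features, 11.1% rose and 10.3% fell. Of 131 listed, 130 were tested, none rose and 2 fell, RPL22B and RPS22B, at -0.51 and -0.27, and both calls were lost without any 1 of 9 and of 10 libraries (adjusted p up to 0.105 and 0.119), that of RPS22B also with the culture as a block (0.088), and neither was called without the 3 libraries named above. At an unadjusted p below 0.05, 17 had a positive and 2 a negative change, and DESeq2 called none in either direction. The share of all features at that unadjusted level is not given here, so the 17 and 2 cannot be set beside it. Their median log2 change was 0.28 in code 14 and -0.09 in code 18, and 38 were called higher in code 14 alone, where 7.26% of all features rose, against none in code 18 alone. The change differed between codes in 17 of the 130. Of all features, 1.39% had the more positive change in code 18 and 1.22% in code 14. Many of these genes exist as near-identical pairs, between which the counting can divide reads.

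Most genes of the hexose transport and phosphorylation list were higher in M. Of 12 listed, 11 were tested, 7 rose and 1 fell, where 11.1% of all features rose, with a median log2 change of 0.83. HXK1, a hexokinase, had 190.4, 249 and 374 CPM in M and 46.6, 91 and 113 CPM in G1 (log2 change 1.57 ± 0.19, adjusted p = 5.51e-06, edgeR). The low-affinity transporter HXT1 had 125, 215 and 241 CPM in M and 30.8, 68 and 122 CPM in G1 (log2 change 1.49 ± 0.15, adjusted p = 8.39e-07, edgeR), and HXT4 (1.18 ± 0.18) and HXT3 (0.65 ± 0.07) rose without overlap. HXT7 also passed (1.48 ± 0.22), but HXT6, its near-identical neighbour, ran from 0 to 101 CPM in M and 0 to 99.8 CPM in G1, so how reads were divided between this pair is uncertain. The fall of HXK2, the main hexokinase, was small (-0.19) and missed the threshold without any 1 of 6 libraries (adjusted p up to 0.0681), with the culture as a block (0.0539) and without the 3 libraries named above. MTH1 (1.02) and MIG1 (0.83), regulators of glucose-controlled transcription, were the other genes called higher.

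Methionine, phosphate and stress genes had no common direction. Over all features, 11.1% rose and 10.3% fell. Of 21 methionine and sulfur genes listed, 11 were tested, 2 rose and 1 fell, and MET3, whose promoter drives YCG1 in ycg1Degron1, was not called (-0.47 ± 0.28). MET13 rose (0.76 ± 0.17) and MET14 fell (-0.96 ± 0.27), but MET14 was not called in either code alone, and had too few counts to test without G1 code 18 replicate 2 or G1 code 14 replicate 3. SAM2 (0.92) was called as well, but not without any 1 of 6 libraries (adjusted p up to 0.133) and not with the culture as a block (0.0685). Of 16 phosphate genes listed, 12 were tested, 3 rose and 1 fell. The gene that fell, PHO81 (-0.30), an inhibitor of the Pho85 kinase, missed the threshold without any 1 of 8 libraries (adjusted p up to 0.0914), without the 3 libraries named above, with the culture as a block (0.0832) and with DESeq2. The count of genes that rose was 6 in code 14 alone (7.26% of all features rose) and 1 in code 18 alone (7.9%). The change differed between the codes in 4 of the 12, PHO84, PHO5, PHO11 and PHO12. Of all features, 1.39% had the more positive change in code 18 and 1.22% in code 14. PHO12, a secreted acid phosphatase, had 17.8, 97.3 and 269.9 CPM in M and 8.81, 18.9 and 30.3 CPM in G1 (log2 change 2.22 ± 0.47, adjusted p = 0.00235, edgeR), but the change was 4.05 in code 14 and 0.19 in code 18.

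Of 20 stress genes listed, 18 were tested, 4 rose and 4 fell, where 11.1% of all features rose and 10.3% fell. SSA1, a cytosolic Hsp70, had 376, 556 and 717 CPM in M and 810.2, 963 and 1168 CPM in G1 (log2 change -0.82 ± 0.08, adjusted p = 3.47e-07, edgeR). HSP82 and HSC82, the Hsp90 pair, changed by -0.77 ± 0.09 and -0.33 ± 0.06 and HSP78, a mitochondrial disaggregase, by -0.40 ± 0.11, so that the genes that fell were chaperones and none of the 4 overlapped. GSY1, a glycogen synthase, had 36.4, 69.7 and 99.2 CPM in M and 9.31, 16.3 and 25 CPM in G1 (log2 change 1.98 ± 0.28, adjusted p = 3.64e-05, edgeR). TPS2, of trehalose synthesis, rose by 0.52 ± 0.13. The count of genes that rose was 2 without G1 code 18 replicate 1, 2 or 3, M code 18 replicate 1 or 3 or G1 code 14 replicate 3, since TPS1 and GPD1 then missed the threshold (adjusted p up to 0.103 and 0.0987). It was also 2 with the culture as a block, where their adjusted p was 0.0826 and 0.0777.

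The highest changes also included genes outside the cell-cycle lists. MRH1, a plasma membrane protein related to Hsp30, had 805, 1037 and 1389 CPM in M and 41, 58.8 and 69.2 CPM in G1 (log2 change 4.21 ± 0.13, adjusted p = 5.26e-14, edgeR). YRO2, its paralogue, had 42.8, 84.1 and 157 CPM in M and 1.23, 4.9 and 19.1 CPM in G1 (log2 change 3.77 ± 0.39, adjusted p = 1.05e-06, edgeR). CTR1, the high-affinity copper transporter, had 189, 327 and 420.4 CPM in M and 18.9, 27.6 and 47.8 CPM in G1 (log2 change 3.35 ± 0.20, adjusted p = 4.70e-10, edgeR). YGP1, a secreted glycoprotein, changed by 3.33 ± 0.39 and YML119W, an uncharacterised gene, by 2.90 ± 0.26. None of the 5 overlapped between the arrests, which the rule that named them required. YRO2 and YGP1 differed between the codes, with log2 changes of 2.39 and 1.63 in code 14 and of 5.66 and 4.85 in code 18.

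Ribosomal RNA itself made up nearly all counts and did not differ detectably. The ribosomal DNA rows, all on chromosome XII, held 95.5%, 95.7% and 95.8% of counts in M (lowest, median, highest) and 95.3%, 95.5% and 95.7% in G1, a difference of means of 0.145 percentage points (exact stratified permutation test, two-sided, p = 0.125, also above the threshold after adjustment over 5 shares). RDN37, the row of the whole precursor unit, changed by 0.01 ± 0.04, RDN18 by -0.01 ± 0.03 and RDN25 by 0.01 ± 0.04, none of them called. The RDN37 row spans RDN18 and RDN25, so reads of mature ribosomal RNA can count toward it. Its value is therefore no measure of the precursor by itself. The 5S genes RDN5-1 and RDN5-6 were at -0.65 ± 0.25 (adjusted p = 0.0684, edgeR) and the other 4 copies at -0.41 ± 0.30 (adjusted p = 0.37, edgeR). Copies of 1 sequence carried identical values, so these rows are not separate measurements. A share cannot show a change of all RNA together.

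Most other non-coding RNA did not differ detectably either. Small nucleolar RNAs held 0.165%, 0.173% and 0.203% of counts in M and 0.166%, 0.175% and 0.191% in G1 (exact p = 0.855), and mitochondrial RNAs 0.226%, 0.272% and 0.292% in M and 0.260%, 0.275% and 0.311% in G1 (exact p = 0.385). Of 57 snoRNAs tested, 1 rose and none fell, where 11.1% of all features rose and 10.3% fell. The exception was snR17b, 1 of the U3 copies that act in pre-rRNA cleavage, with 3519.9, 3905 and 4286 CPM in M and 2462, 2927 and 3228 CPM in G1 (log2 change 0.43 ± 0.07, adjusted p = 0.000219, edgeR) and no overlap. Lack of overlap was also part of the rule for naming non-coding features. The other U3 copy, snR17a, was not called (-0.08 ± 0.06), and as the copies are nearly alike the division of reads between them is uncertain. None of the 6 spliceosomal RNAs passed, with log2 changes from -0.42 to -0.01, and the RNase P RNA RPR1 (0.11 ± 0.09) and the signal recognition RNA SCR1 (-0.03 ± 0.06) were not called.

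Among other structural RNAs, named here after their values were seen, the telomerase RNA TLC1 had 137, 153 and 206 CPM in M and 113, 126 and 139.7 CPM in G1 (log2 change 0.33 ± 0.10, adjusted p = 0.0192, edgeR). NME1, the RNase MRP RNA, had 511, 611 and 761 CPM in M and 666, 731 and 778 CPM in G1 (log2 change -0.26 ± 0.08, adjusted p = 0.0384, edgeR). In both the arrests overlapped. The call of TLC1 was lost without M code 18 replicate 1 or M code 14 replicate 2 (adjusted p up to 0.0544, edgeR), and that of NME1 without any 1 of 8 libraries (adjusted p up to 0.0887, edgeR). SCEI, an intron-encoded endonuclease gene, was the only 1 of 18 tested mitochondrial features to pass (0.48 ± 0.08, adjusted p = 0.000344, edgeR). For all features the shares were 11.1% higher and 10.3% lower. Transfer RNAs were nearly absent from these libraries: the 299 tRNA rows held 5 to 43 counts in an M library and 11 to 33 in a G1 library, 251 were at 0 in all 12, and none could be tested.

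**Figure D4:**
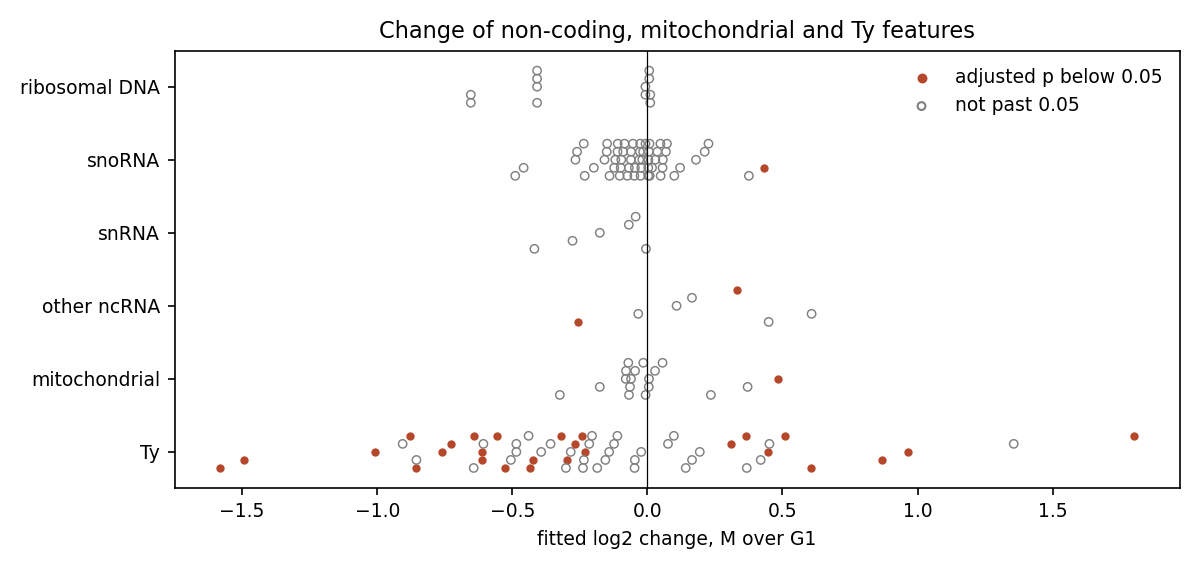
Fitted log2 change, M over G1, of each tested ribosomal DNA, snoRNA, snRNA, other non-coding, mitochondrial and Ty feature, filled where the adjusted p was below 0.05. The snoRNAs and snRNAs crowd around 0 with snR17b at 0.43, while Ty features spread from -1.58 to 1.80.

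Of the Ty retrotransposon families, Ty2, Ty3 and Ty4 fell. Of 60 Ty features tested, 8 rose and 19 fell, where 11.1% of all features rose and 10.3% fell. However, copies of a family are nearly identical and reads are divided among them. The families were therefore summed, a choice made after the values were seen. Ty3, a family of the gypsy type, had 3060, 3323 and 4214 CPM in M and 7727, 10462 and 12800 CPM in G1, which made it 2.97-fold higher in G1 (exact stratified permutation test, two-sided, p = 0.005, the smallest it allows, adjusted over 4 families 0.00667). No M library reached the G1 range. Both full-length Ty3 copies fell alike, YIL082W-A on chromosome IX by -1.58 ± 0.09 and YGR109W-B on chromosome VII by -1.49 ± 0.07.

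Ty2 had 15452, 18808 and 25898 CPM in M and 21893, 27310.4 and 33979.9 CPM in G1 (log2 ratio of means -0.49, exact p = 0.005). Its arrests overlapped over all libraries but not within either code. Ty4 was scarce, with 64.5, 88.4 and 96.0 CPM in M and 98.8, 132 and 215 CPM in G1 (log2 ratio -0.76, exact p = 0.005), and its arrests did not overlap. Ty1, with the highest summed level of the 4, had 54406, 57030.3 and 68391 CPM in M and 58350.1, 63411 and 67685 CPM in G1, a log2 ratio of -0.10 that was not past the threshold (exact p = 0.14). The permutation test takes the libraries as unpaired. With M and G1 paired by culture, exact sign flips gave an unadjusted p of 0.03125 for Ty2, Ty3 and Ty4, and 0.21875 for Ty1. The most positive value among single copies was that of YPR158W-A (1.80 ± 0.38), a copy whose G1 values ran from 1.37 to 136 CPM.

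**Figure D5:**
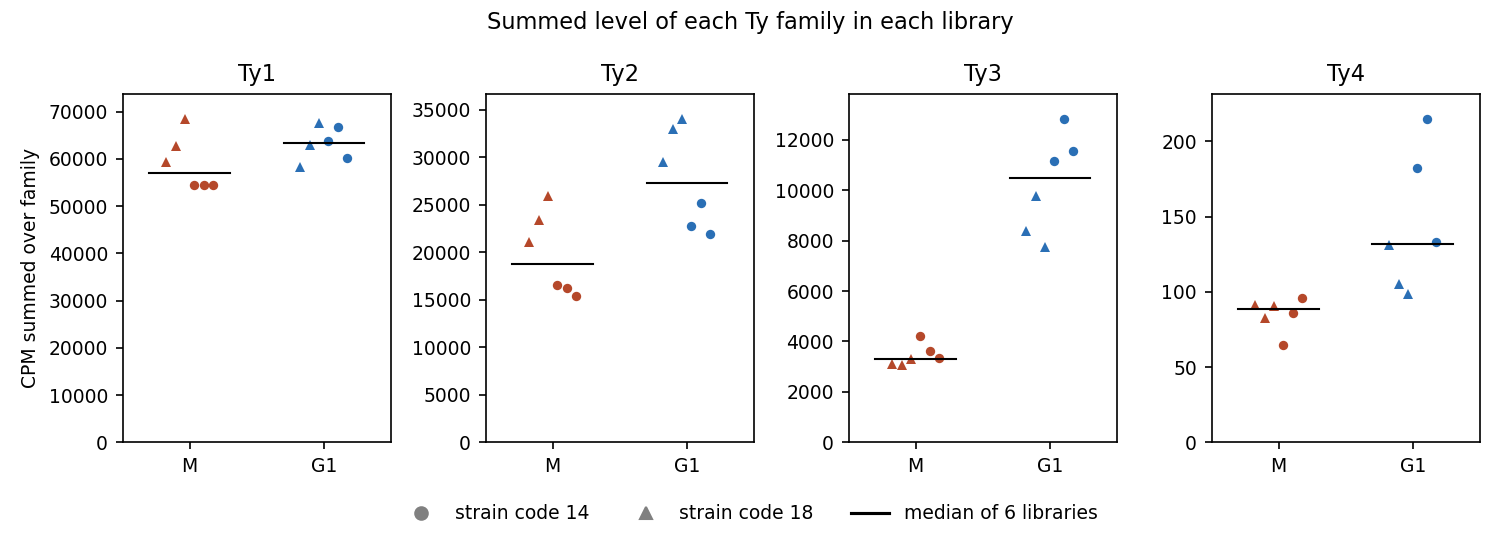
Summed CPM of the Ty1, Ty2, Ty3 and Ty4 families in each library, M left of G1, with symbols for the strain code and lines for the median of 6 libraries. The 6 M libraries of Ty3 lie between 3060 and 4214 CPM and the 6 G1 libraries between 7727 and 12800 CPM.

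The change between arrests was next compared with that in the polyA-selected libraries of the same RNA samples, which share their cultures with the total libraries and are therefore no independent replicates. In 1 model over all 24 libraries, the log2 change in total RNA minus that in polyA RNA passed the threshold in 9 of 5775 features (0.156%), 8 of them more positive in total RNA, and its median over all features was 0.01. Mating genes were among them. AGA1 changed by -4.67 in total RNA and -5.93 in polyA RNA (difference 1.26, adjusted p = 0.00219, edgeR). FIG1 changed by -4.48 in total RNA and -6.72 in polyA RNA (difference 2.23, adjusted p = 0.0232, edgeR), and FUS1 by -4.17 and -5.63 (difference 1.45, adjusted p = 0.0345, edgeR). These 3 genes fell in both library types, and by more in polyA RNA.

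The Ty3 copy YGR109W-B changed by -1.49 in total RNA and -2.33 in polyA RNA. EFM5, a lysine methyltransferase, changed by -0.53 in total RNA and -1.21 in polyA RNA. The remaining 4 were the Ty reading frames YBL100W-B, YDR261W-B and YCL020W, whose reads cannot be told from those of near-identical copies, and YIL080W, which RefSeq does not list. YCL020W was the only feature with the more negative change in total RNA (difference -10.64). The count was 14 with the culture as a replicate block and 5 without M code 18 replicate 2, G1 code 14 replicate 3 or M code 14 replicate 1. By list, the median change in polyA RNA was -3.06 for pheromone genes and 1.22 for the CLB2 cluster, against -2.58 and 1.07 in total RNA. In polyA RNA 29 of the 35 ribosome biogenesis genes were called lower, where 21.5% of all features were lower and 20.2% higher, against 11 in total RNA, where 10.3% were lower, but the difference between library types passed the threshold in none of them.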

How the data were processed

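Total and polyA-selected RNA of the same 12 RNA samples was sequenced by the authors with stranded kits and single-end reads of 76 bp. Per the labels and the study's methods, reads were trimmed with cutadapt 1.9.1, aligned with STAR 2.5.2a and counted with RSEM 1.3.0 on the R64 assembly, and the authors deposited expected counts, which divide reads that fit several genes among them. The 24 deposited columns of TPM were not used.

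Columns were grouped by the arrest, library type and strain code in their names, with 3 biological replicates for each code. Expected counts were rounded to whole numbers. Library sizes and TMM factors came from rows that are neither ERCC nor ribosomal DNA. Features passing edgeR's filterByExpr were tested with edgeR 4.0.16 (R 4.3.3, quasi-likelihood F test, strain code plus arrest), with Benjamini-Hochberg adjustment over all 4685 and a threshold of 0.05, and the code was tested on simulated data. A log2 change is M over G1 with its standard error. Shares and Ty family sums were compared by an exact permutation test within codes (400 regroupings, smallest p 0.005). Promoter windows were read from the RefSeq genome of R64, and 6079 features were matched to RefSeq.

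M and G1 libraries with the same code and replicate number came from 1 culture sampled in sequence. Deviations from the group means of such pairs correlated at -0.014 to 0.051 over features, and those of differently numbered pairs at -0.054 to 0.024. The study's design, in DESeq2, crossed arrest with treatment and had no culture term. Here code and arrest were fitted without their interaction or a culture term. The interaction form and the culture as a block were alternatives, with scaling, filtering, DESeq2 1.42.0, single codes and libraries left out in turn.

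Genes were named by rule: past the threshold, no overlap between arrests and a mean of at least 10 CPM in the higher arrest, the 10 highest and 10 lowest protein-coding genes, the corresponding non-coding features, ribosomal DNA rows and members of 19 gene lists. Members and lists were chosen with earlier results of these data known. The ribosomal protein list, the Ty sums and the polyA values beside each change were added after values had been seen. Intervals and tests cover the spread between these cultures. Scaling on ERCC rows was not run, since no library held 1000 ERCC counts.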

Additional observations from a re-analysis of the deposited data

Results flagged for a closer look

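In groups of 6 libraries, 4 of the 106 examined held a library far from the other 5, and chance gives such a flag in about 1 of 20 groups. The G1 library of code 18, replicate 3, accounted for 3 of them, with 1164.9 CPM summed over the replication licensing list, 3875 CPM over the G1/S list and 433 CPM over the histone list, the highest G1 value in each. The M library of code 18, replicate 1, had the lowest MFA1 level in M, at 1.05 CPM.

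The change between arrests differed between the codes, by edgeR's interaction test, in 19 of the 292 genes that led the comparison or belong to a gene list fixed for the report, 3 of them more positive in code 18 and 16 in code 14. Over all features tested, 1.39% were more positive in code 18 and 1.22% in code 14. The log2 change in code 18 minus that in code 14 was 3.26 for YRO2 (adjusted p = 0.0168), 3.22 for YGP1 (adjusted p = 7.08e-05) and 1.46 for GPD1, a glycerol synthesis enzyme (adjusted p = 0.00459), each more positive in code 18 (edgeR). It was -3.86 for PHO12 (adjusted p = 0.000259), -1.04 for PHO84, a phosphate transporter (adjusted p = 0.0267), and -2.64 for CSI2, of the G1/S list (adjusted p = 0.0155), each more positive in code 14 (edgeR). In the G1/S list it was also -3.28 for CLN1, -2.87 for RNR1, -2.04 for SVS1, -1.97 for RAD53, -1.97 for SPT21, -1.59 for POL30, -1.59 for GIN4 and -1.25 for PRI2. It was -6.46 for PHO5 and -4.18 for PHO11, which are acid phosphatase genes, -0.94 for SST2 of the pheromone list, and -0.50 for NOP58 and -0.48 for RRP12, of ribosome biogenesis. The adjusted p of PHO5 was 1.25e-05 and the highest of these, that of RAD53, was 0.0338 (edgeR). YRO2 and YGP1 rose in both codes. PHO12 changed by 4.05 in code 14 and 0.19 in code 18, and GPD1 by -0.06 in code 14 and 1.40 in code 18. The codes were not decoded, so these differences are not assigned to a strain.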

How the results depend on the processing

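The 521 features higher and 484 lower in M ranged from 429 to 517 and from 423 to 465 when 1 library was left out. They were 340 and 300 in code 14 alone, which has 6 of the 12 libraries, 629 and 385 without a normalisation factor, 433 and 407 with DESeq2, 601 and 557 with the arrest effect averaged over codes, and 418 and 389 without the 3 libraries named in the report, a setting chosen after seeing the data, with 713 of these 807 among the 1005 main calls. At least 2-fold higher and lower features numbered 111 to 135 and 83 to 96 without 1 library. With the culture as a replicate block, 469 were higher and 429 lower, 875 of these 898 shared with the main calls, and the features whose change differed between total and polyA RNA numbered 14, against 9 in the main comparison and 5 to 11 without 1 library. Among genes named in the report, the block ended the calls of BUB3, CLB4, GPD1, HXK2, MCM3, PHO81, RPS22B, SAM2, TPS1 and TUB2. The difference in ribosomal DNA share ranged from 0.0997 to 0.184 percentage points without 1 library, and p by sign flips over the 6 cultures was 0.156. GPD1 reversed in code 14 alone (-0.0641). Of 95 called genes that led the comparison or a list, 14 missed the threshold without 1 library, as did 27 of the 146 called list members. No scaling moved the median of all features by more than 0.1 on the log2 scale, from 0.0068 to at most 0.0523. The cause of these shifts was not tested. At 595508 to 979155 counts outside ribosomal DNA, libraries leave genes below about 10 CPM imprecise, and tRNAs could not be tested.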

Other observations

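Some genes outside the lists were looked up after their values had been seen. SUR7, a membrane protein of the eisosome compartment of the cell surface, had 64.3, 86.3 and 92.6 CPM in M and 4.9, 13.1 and 23.5 CPM in G1 (log2 change 2.57 ± 0.21, adjusted p = 5.10e-08, edgeR). NCE102, of the same compartment, had 133, 164 and 203 CPM in M and 14.7, 32.3 and 64.6 CPM in G1 (log2 change 2.33 ± 0.20, adjusted p = 6.91e-08, edgeR). FRE1, a cell-surface reductase of iron and copper uptake, had 387, 668 and 874 CPM in M and 90.5, 127 and 183 CPM in G1 (log2 change 2.32 ± 0.18, adjusted p = 2.16e-08, edgeR), in the same direction as the copper transporter gene CTR1. In these genes the libraries of the arrests did not overlap.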
